A study of Homo sapiens with 9 samples.

Results

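The 36 genes described here encode the glycolytic pathway and a set of transcripts that hypoxia is known to induce. They comprise 4 glucose and monocarboxylate transporters, 15 glycolytic enzymes, 3 genes that set the fate of pyruvate (LDHA, LDHB and PDK1), 3 enzymes of fructose-2,6-bisphosphate metabolism, and HIF1A with 10 genes that respond to low oxygen outside glycolysis. They were taken by symbol from the 63856 genes of the deposited tables, from a list of pathway members that was drawn up with earlier results of these data known. RNA-seq was performed in TCam-2, a human cell line derived from a testicular seminoma, in 3 groups of 3 samples. Wild-type cells (WT) received no vector. The negative control (NC) was transfected with a GFP vector carrying gRNAs that match no human sequence. The ESX1 group was transfected with the same vector carrying gRNAs against the promoter region of ESX1, an X-linked homeobox gene, together with a doxycycline-inducible dCas9-VPR activator (CRISPRa). Transfected cells were collected after 72 h of puromycin and doxycycline. Whether the NC cells also received the activator is not given in the sources used here. All groups came from a single line, and in the NC and ESX1 groups only a part of the cells carried the GFP marker after selection. The design asks what ESX1 activation changes against both controls, and NC against WT compares transfected with untreated cells.

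Glycolysis converts glucose to pyruvate in the cytosol. In many tumours, and in the Sertoli cells of the testis, a large part of that pyruvate is reduced to lactate rather than oxidised in mitochondria. When oxygen is low, HIF-1, a dimer of the HIF1A protein and ARNT, is stabilised because the prolyl hydroxylases that mark it for degradation lose activity, and it binds hypoxia response elements with the core letters ACGTG or GCGTG near glycolytic genes, glucose transporters and PDK1. HIF1A is controlled mainly at the level of its protein, which was not measured here.

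The ESX1 transcript was at 3.61 ± 0.474 normalized CPM (read-pair counts scaled to library size; mean ± SD, n = 3) in WT, 3.33 ± 0.385 in NC and 48.0 ± 14.4 in ESX1 samples. Library totals were 5212804 to 10644408 counts, with the lowest in ESX1 replicate 3, and mitochondrial transcripts took 17.0 to 18.3% of counts in WT, 14.5 to 15.3% in NC and 19.2 to 19.9% in ESX1 samples. All 8 seminoma markers (such as POU5F1, NANOG and KIT) were present in every library, and their summed level was 3631 to 4428 CPM in WT, 2673 to 2869 in NC and 1481 to 1811 in ESX1 samples, in the same order as the glycolytic sums given later, with SOX17 as the 1 marker whose mean was not lower than in WT. Of the markers of other cells, PTPRC was at or below 0.185 CPM. The Sertoli and Leydig markers summed to 5.68 to 10.2 CPM in WT, 7.94 to 13.7 in NC and 5.73 to 18.7 in ESX1 samples. Nearly all of this was AMH, and INSL3 was at 0 in all libraries. The embryonal carcinoma markers SOX2 and GDF3 summed to 2.30 to 6.41 CPM in WT. Their sum was 6.94 to 12.6 in NC and 5.48 to 10.3 in ESX1 samples. The fibroblast markers summed to 2.33 to 5.68 CPM in WT, 15.5 to 20.2 in NC and 10.3 to 29.9 in ESX1 samples. Nearly all of the fibroblast sum was COL1A1. The part of these shifts in the results was not tested, and in a bulk sample fewer cells of a type and less RNA per cell cannot be told apart.

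Promoter windows of 5 members show how they differ in the core letters of the hypoxia response element. Each window is the 250 bases before a transcription start in RefSeq (GRCh38.p14), printed 5′ to 3′ on the strand of the gene, with ACGTG and its reverse complement CACGT in capitals. LDHA (chr11:18394313-18394562, plus strand) was shown as the window with 5 matches at 3 sites, ALDOC (chr17:28576896-28577145, minus strand) as the glycolytic enzyme with the lowest level relative to WT in ESX1 samples, PGK1 (chrX:78103998-78104247, plus strand) and PDK1 (chr2:172555840-172556089, plus strand) as lower members with 2 matches, and PGAM1 (chr10:97427568-97427817, plus strand) as a strongly lower member with none. LDHA and PDK1 each have 2 windows, of which only 1 held ACGTG, and that one is printed.
LDHA: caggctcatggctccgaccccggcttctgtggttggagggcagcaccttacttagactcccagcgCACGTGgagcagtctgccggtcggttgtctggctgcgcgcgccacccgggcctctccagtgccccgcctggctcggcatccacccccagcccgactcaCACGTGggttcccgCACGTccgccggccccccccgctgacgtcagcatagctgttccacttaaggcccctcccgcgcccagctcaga
ALDOC: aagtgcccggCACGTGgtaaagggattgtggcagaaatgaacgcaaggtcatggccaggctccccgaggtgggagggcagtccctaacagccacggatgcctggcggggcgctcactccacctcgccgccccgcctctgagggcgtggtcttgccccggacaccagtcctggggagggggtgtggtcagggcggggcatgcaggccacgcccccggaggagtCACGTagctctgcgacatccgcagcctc
PGK1: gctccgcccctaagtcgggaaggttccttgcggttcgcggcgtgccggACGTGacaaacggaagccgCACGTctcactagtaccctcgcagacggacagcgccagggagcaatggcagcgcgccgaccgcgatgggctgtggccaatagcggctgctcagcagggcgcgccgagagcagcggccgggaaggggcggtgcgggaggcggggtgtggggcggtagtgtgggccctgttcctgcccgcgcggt
PDK1: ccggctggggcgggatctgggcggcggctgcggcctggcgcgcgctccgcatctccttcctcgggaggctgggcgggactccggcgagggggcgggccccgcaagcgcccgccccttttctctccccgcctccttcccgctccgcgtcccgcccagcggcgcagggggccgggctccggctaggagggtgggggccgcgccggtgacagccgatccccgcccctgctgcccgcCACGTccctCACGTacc
PGAM1: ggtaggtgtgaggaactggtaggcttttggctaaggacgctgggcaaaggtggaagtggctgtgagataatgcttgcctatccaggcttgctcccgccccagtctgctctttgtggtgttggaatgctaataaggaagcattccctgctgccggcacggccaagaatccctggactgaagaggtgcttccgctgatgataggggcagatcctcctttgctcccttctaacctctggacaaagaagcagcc
The sequence CACGTG, which occurs at 2 sites of LDHA and at 1 site of ALDOC, reads the same on both strands and counts as 2 matches, and it is also the canonical E-box of MYC-type factors. Across the members, 59 windows of 31 genes were available, and 21 of these windows (35.6%) held ACGTG on either strand, compared with 18.5% of the 35116 windows of all genes and 21.8% of the 16110 windows of tested genes. The second core, GCGTG, was found on either strand in 32.2% of member windows, 32.2% of all windows and 42.3% of the windows of tested genes. Set beside the expression changes described below, a window with ACGTG belonged to 8 of the 15 members with windows that were lower in NC than in WT, to 9 of the 13 that were not called, and to neither of the 2 that were higher. A gene was counted if any of its windows matched. The lower members had 1 or 2 windows each and the uncalled ones up to 7 (HK1 and PFKM), so these gene counts cannot be compared directly. These matches describe letters within a window only.

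Levels were expressed as CPM per kb of exon, over all annotated exon bases of a gene rather than the length of its expressed transcripts. This makes genes only roughly comparable. On that scale the members spanned more than 3 orders of magnitude in WT cells. TPI1 (730) and GAPDH (700), which act on the triose phosphates, were highest, followed by the enolases ENO1 (300) and ENO2 (239), by ADM (210), a secreted vasodilator peptide, and by LDHB (198) and PGAM1 (159). Neuron-specific enolase, ENO2, was thus near the level of ENO1, with a per-kb ratio of ENO1 to ENO2 of 1.26 ± 0.0908. The order of TPI1 and GAPDH did not exceed their spread, as their WT replicates overlapped. Among isozymes, SLC2A3 (GLUT3) exceeded SLC2A1 (GLUT1) 3.17 ± 0.429 times per kb, LDHB exceeded LDHA 3.72 ± 0.247 times, and ALDOA exceeded ALDOC 7.23 ± 1.05 times. The size of these ratios depends on the annotated exon bases, which were 2983 for LDHB, 6210 for LDHA, 6153 for ALDOA and 2928 for ALDOC. Without that division the WT means were 591 CPM for LDHB, 331 for LDHA, 342 for ALDOA and 23.2 for ALDOC. The hypoxia marker CA9, a membrane carbonic anhydrase, was near silent with 0 to 10 counts a library and could not be tested, and 38.5% of its exon bases are shared with ARHGEF39. ANKRD37 (0.415) and the prolyl hydroxylase EGLN3 (0.338) were also low, with 35.2% of ANKRD37 exon bases shared with UFSP2 on the other strand. The counting did not use strand, so reads of such overlaps cannot be assigned to either gene.

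**Figure D1:**
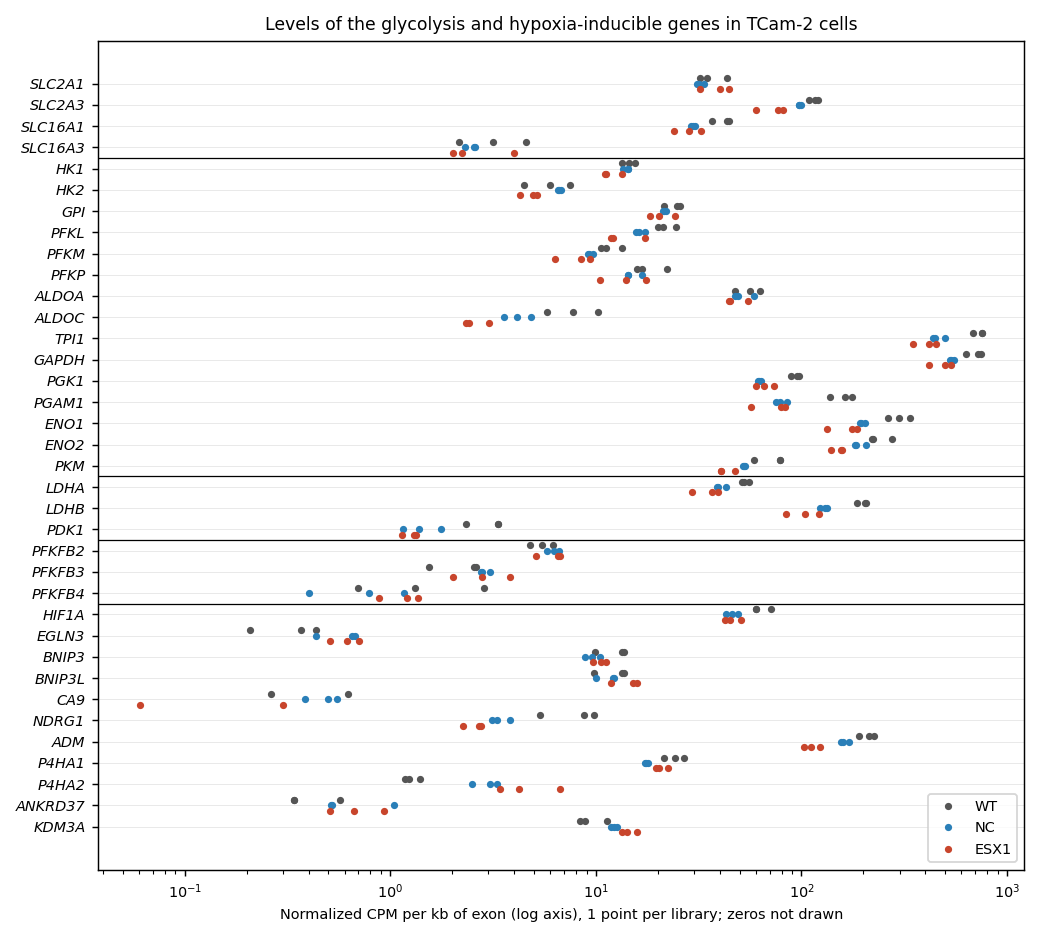
Normalized CPM per kb of exon (log axis) of the 36 members, with 1 point per library and lines between the 5 functional groups. TPI1 and GAPDH lie near 700 in WT, whereas CA9, ANKRD37 and EGLN3 are the lowest, and WT points lie to the right of NC and ESX1 points for every enzyme from TPI1 to LDHB.

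In NC against WT, 17 of the 35 tested members were lower and 2 were higher at an adjusted p below 0.05 (edgeR, quasi-likelihood, adjusted over 18452 genes), beside 10.3% and 6.82% of all tested genes. The median log2 fold change of the members was -0.38, against 0.01 over all genes. Past 2-fold there were 4 members (NDRG1, PDK1 and PGAM1 lower, P4HA2 higher), beside 5.27% of all genes. All NC replicates lay below all WT replicates for 19 members, beside 20.0% of all genes. The count of 17 was 10 without WT replicate 2, 10 without WT replicate 3, 10 without NC replicate 2 and 8 without NC replicate 3, and it was 8 (with 3 higher) when counts were scaled by library totals alone, a scaling that raised the median of all genes by 0.20 and turned the calls over all genes from 1259 higher and 1899 lower to 2844 higher and 1006 lower. Without WT replicate 2 the calls of SLC16A1, PFKL, GAPDH, PKM, LDHA, HIF1A and ADM were lost, without WT replicate 3 those of PFKL, ALDOC, ENO2, PKM, LDHA, ADM and P4HA1, without NC replicate 1 those of PFKL, ENO2, LDHA and HIF1A, without NC replicate 2 those of PFKL, GAPDH, ENO2, PKM, LDHA, ADM and P4HA1, without NC replicate 3 those of SLC16A1, PFKL, GAPDH, ENO2, PKM, LDHA, HIF1A, ADM and P4HA1, and without ESX1 replicate 3 that of PFKL. WT and NC cells differed in transfection, selection and induction at once, which cannot be told apart.

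In ESX1 against WT, 18 members were lower and 2 were higher, beside 15.8% and 12.9% of all genes, and the median log2 fold change was -0.49 against 0.01 over all genes. Past 2-fold there were 5 members (NDRG1, ALDOC, PDK1 and PGAM1 lower, P4HA2 higher), beside 11.5% of all genes, and 18 members had all ESX1 replicates below all WT replicates, beside 21.3% of all genes. This comparison shares its WT samples with the previous one. The count of lower members was 17 to 20 under every alternative processing and with any 1 sample left out.

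In ESX1 against NC, the comparison that holds the transfection procedure most alike, 2 members were lower (ADM and SLC2A3) and 0 were higher, beside 2.37% and 1.88% of all genes. No member passed 2-fold, beside 1.78% of all genes. At an unadjusted p below 0.05 there were 9 of the 35 members, beside 16.0% of all genes. DESeq2 called the same number lower and 1 higher (P4HA2). The median log2 fold change was -0.11 against 0.00, and 10 members had all ESX1 replicates below all NC replicates, beside 11.8% of all genes. The members that differed from both controls in the same direction were therefore ADM and SLC2A3 as lower, and 0 as higher, beside 2.13% and 1.59% of all genes.

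**Figure D2:**
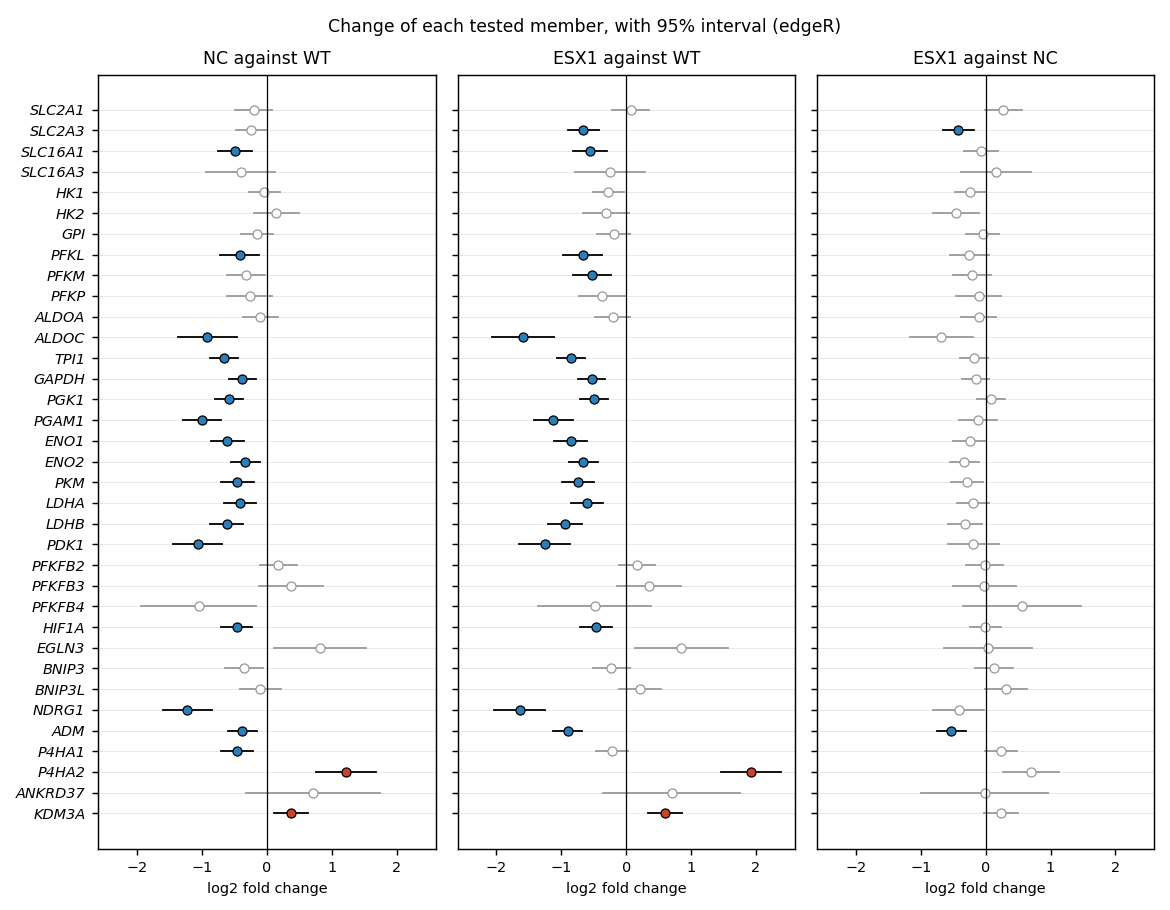
Log2 fold changes of the 35 tested members with 95% intervals from edgeR, in the 3 comparisons (which share samples). Filled points passed an adjusted p of 0.05 (blue lower, red higher): 17 and 2 in NC against WT, 18 and 2 in ESX1 against WT, and 2 and 0 in ESX1 against NC.

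Among the transporters, the glucose carrier SLC2A3 was lower in ESX1 samples than in both controls, while SLC2A1 was not called in any comparison. SLC2A3, the high-affinity carrier (chr12:7919230-7936275, minus strand), was at 718, 742 and 670 CPM in WT, 599, 597 and 609 in NC and 475, 502 and 371 in ESX1 samples. The 3 groups did not overlap, and WT was highest. ESX1 samples were lower than NC by 0.42 on the log2 scale (SE 0.11, adjusted p = 0.0388) and lower than WT by 0.66 (adjusted p = 0.000298), whereas NC against WT gave -0.24 (adjusted p = 0.153). The difference from NC was no longer called without ESX1 replicate 3, without WT replicate 2 or without any 1 of the NC replicates, with log2 values of -0.29 without ESX1 replicate 3 and -0.40 to -0.42 in the others. SLC2A1, the carrier of most dividing cells, was at 205, 164 and 152 CPM in WT, 158, 146 and 150 in NC and 189, 151 and 209 in ESX1 samples, with overlapping groups and no call (log2 -0.20 in NC and 0.07 in ESX1 samples against WT). The per-kb ratio of SLC2A3 to SLC2A1 was 3.17 ± 0.429 in WT, 3.05 ± 0.119 in NC and 1.95 ± 0.591 in ESX1 samples, and every ESX1 replicate was below every replicate of the controls. The lactate and pyruvate carrier SLC16A1 (MCT1) fell to 71.4% of WT in NC and 68.0% in ESX1 samples (adjusted p = 0.0117 and 0.00269). SLC16A3 (MCT4), the carrier linked to lactate export, was not called in any comparison at 18.1 to 41.1 CPM.

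The early steps of glycolysis, from hexokinase to aldolase, were mostly not called. Hexokinases HK1 and HK2, which trap glucose in the cell, phosphoglucose isomerase GPI, the phosphofructokinase PFKP and the main aldolase ALDOA were not called in any comparison. HK2 was at 45.5, 27.0 and 36.4 CPM in WT, 40.8, 39.8 and 40.1 in NC and 31.4, 30.0 and 25.9 in ESX1 samples, so the NC replicates lay within the WT range and the ESX1 replicates below NC (log2 -0.46, adjusted p = 0.15). PFKL, the liver-type phosphofructokinase, was lower in NC (log2 -0.42, adjusted p = 0.048) and in ESX1 samples (-0.67, adjusted p = 0.00175) than in WT, although the first of these calls was kept under only 8 of 18 alternatives. PFKM, the muscle type, was lower in ESX1 samples (-0.53, adjusted p = 0.00855), while NC against WT gave -0.32 (adjusted p = 0.121). The first value was -0.36 and not called without ESX1 replicate 3. ALDOC, a minor aldolase (chr17:28573115-28577264, minus strand), had 16.9, 22.6 and 30.0 CPM in WT, 14.2, 10.5 and 12.1 in NC and 7.10, 8.85 and 6.83 in ESX1 samples. The 3 groups of ALDOC did not overlap. It was lower by 0.92 in NC (adjusted p = 0.00726) and by 1.6 in ESX1 samples (adjusted p = 5.74e-05) than in WT on the log2 scale, and ESX1 against NC gave -0.68 (95% interval -1.17 to -0.20, adjusted p = 0.118). Its NC call was lost without WT replicate 3, at -0.68.

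The 9 genes from triosephosphate isomerase to lactate dehydrogenase were all lower in NC and all lower in ESX1 samples than in WT, whereas 10.3% and 15.8% of all genes were lower. Of the 8 genes of the earlier steps, 2 (25%) and 3 (37.5%) were lower, which is also above those shares. The pathway was divided at this point after the values were seen. Of the 9 NC calls, those of TPI1, PGK1, PGAM1, ENO1 and LDHB were kept under all 18 alternatives. Those of GAPDH, PKM, LDHA and ENO2 were kept under 14, 13, 11 and 10. TPI1 (chr12:6867119-6870948, plus strand) was at 1835, 2046 and 2036 CPM in WT, 1347, 1174 and 1208 in NC and 1128, 1213 and 937 in ESX1 samples. The WT replicates of TPI1 stood above all others and NC and ESX1 samples overlapped (log2 -0.67 and -0.85 against WT, adjusted p = 0.000337 and 1.13e-05). GAPDH, often used as a reference gene, was at 1877, 2222 and 2158 CPM in WT, 1643, 1587 and 1574 in NC and 1486, 1596 and 1250 in ESX1 samples. It was thus at 76.8% of WT in NC (adjusted p = 0.0132) and 69.2% in ESX1 samples (adjusted p = 0.00069), with 14.2% of its exon bases shared with an antisense gene. When counts were scaled by library totals, the NC value of GAPDH was -0.18 and was not called. PGK1, which makes the first ATP of the pathway, was at 66.7% of WT in NC and 70.8% in ESX1 samples (adjusted p = 0.000958 and 0.00159).

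PGAM1, phosphoglycerate mutase (chr10:97426160-97433441, plus strand), was the most reduced of these 9 in both comparisons with WT. Its level was 352, 419 and 454 CPM in WT, 219, 192 and 201 in NC and 204, 213 and 145 in ESX1 samples. The level in NC and ESX1 samples was 49.9% and 45.9% of WT (log2 -1.0 and -1.12, adjusted p = 0.000158 and 1.64e-05), and the 2 transfected groups overlapped (log2 -0.12, 95% interval -0.41 to 0.17). ENO1 stood at 1042, 1182 and 1338 CPM in WT, 802, 766 and 768 in NC and 737, 701 and 528 in ESX1 samples, where all 3 groups were separate (log2 -0.61 and -0.86 against WT, adjusted p = 0.00246 and 6.07e-05). ENO2 was lower by 0.33 in NC (adjusted p = 0.0401, kept under 10 of 18 alternatives) and by 0.66 in ESX1 samples (adjusted p = 0.000182), and ESX1 against NC gave -0.33 (95% interval -0.56 to -0.11, adjusted p = 0.0935). Pyruvate kinase PKM was at 73.0% of WT in NC and 59.7% in ESX1 samples (adjusted p = 0.0137 and 0.000178).

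Both lactate dehydrogenase subunits were lower than in WT. LDHB, the heart-type subunit, was at 553, 614 and 607 CPM in WT, 365, 399 and 389 in NC and 311, 363 and 250 in ESX1 samples. The groups of LDHB did not overlap, and the log2 fold change was -0.62 in NC and -0.94 in ESX1 samples against WT (adjusted p = 0.00223 and 2.63e-05) and -0.32 in ESX1 against NC (adjusted p = 0.181). LDHA, the muscle-type subunit and a classical HIF-1 target, changed less, with -0.41 in NC (adjusted p = 0.023) and -0.60 in ESX1 samples (adjusted p = 0.000973), and its 328, 320 and 346 CPM in WT lay above the 181 to 265 CPM of the transfected samples. The per-kb ratio of LDHB to LDHA was 3.72 ± 0.247 in WT, 3.21 ± 0.203 in NC and 2.93 ± 0.155 in ESX1 samples, and the replicates of WT did not overlap those of either other group. PDK1, the kinase that restrains pyruvate dehydrogenase, was at 34.8, 49.7 and 49.6 CPM in WT, 20.5, 17.2 and 26.2 in NC and 19.8, 17.0 and 19.4 in ESX1 samples. It fell to 47.7% of WT in NC and to 41.9% in ESX1 samples (log2 -1.07 and -1.26, adjusted p = 0.000708 and 7.91e-05). The transfected groups overlapped in PDK1 (log2 -0.19, 95% interval -0.58 to 0.21).

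**Figure D3:**
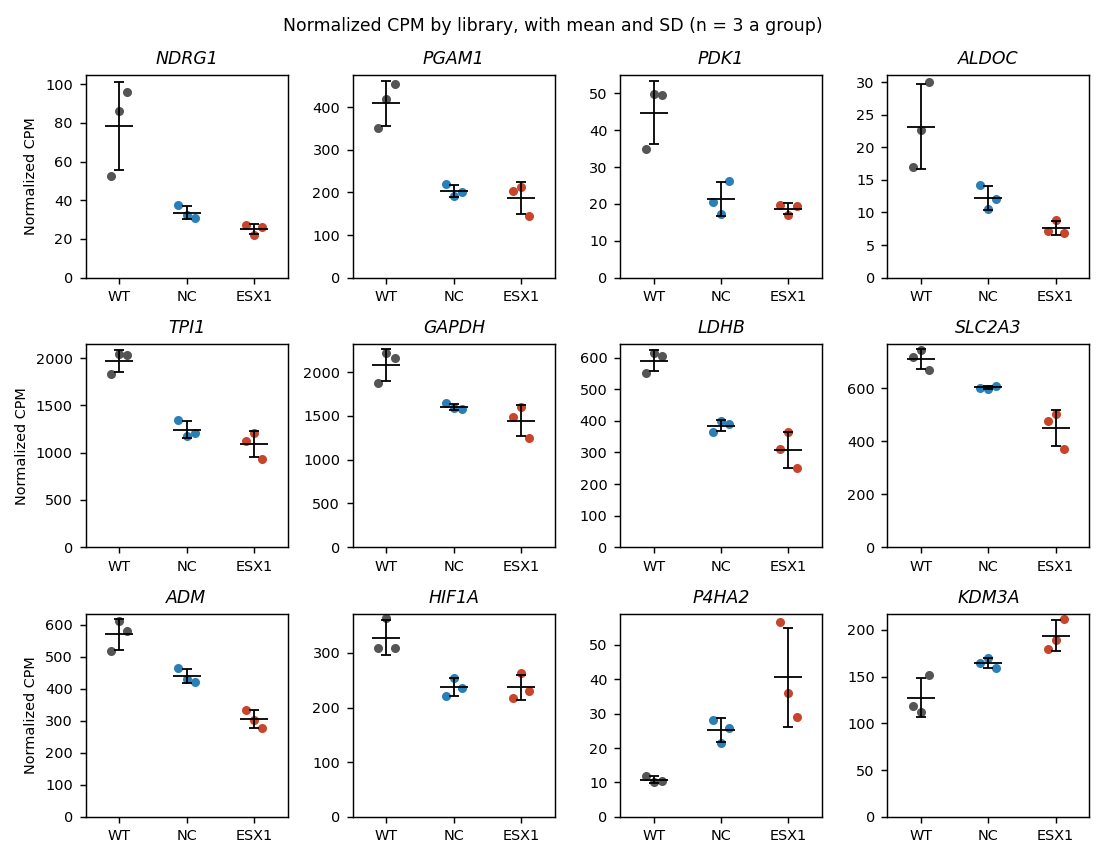
Normalized CPM of 12 members in each library (points) with the mean and SD of 3 replicates a group, each panel starting at 0. WT is above NC and ESX1 for NDRG1, PGAM1, PDK1, ALDOC, TPI1, GAPDH, LDHB, SLC2A3, ADM and HIF1A and below both for P4HA2 and KDM3A, and NC and ESX1 overlap for PGAM1, PDK1, TPI1, GAPDH and HIF1A.

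Summed over the 17 enzymes from hexokinase to lactate dehydrogenase, the level was 8923, 9982 and 10496 CPM in WT, 7295, 6836 and 6881 in NC and 6555, 6486 and 5327 in ESX1 samples. The 3 groups were separate, with means of 9800 ± 802, 7004 ± 253 and 6123 ± 690 CPM. As a share of all counts outside the mitochondrial genome the same genes took 1.10 ± 0.0636% in WT, 0.868 ± 0.0305% in NC and 0.770 ± 0.0739% in ESX1 samples, which is the same order. The 8 genes of the early steps summed to 1077 ± 101 CPM in WT, 941 ± 56.1 in NC and 845 ± 123 in ESX1 samples. For these early steps all ESX1 replicates were below all WT replicates, while the NC replicates overlapped both groups. The 9 genes from TPI1 to LDHB summed to 8723 ± 718, 6063 ± 198 and 5278 ± 622 CPM, with all WT replicates above all others.

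**Figure D4:**
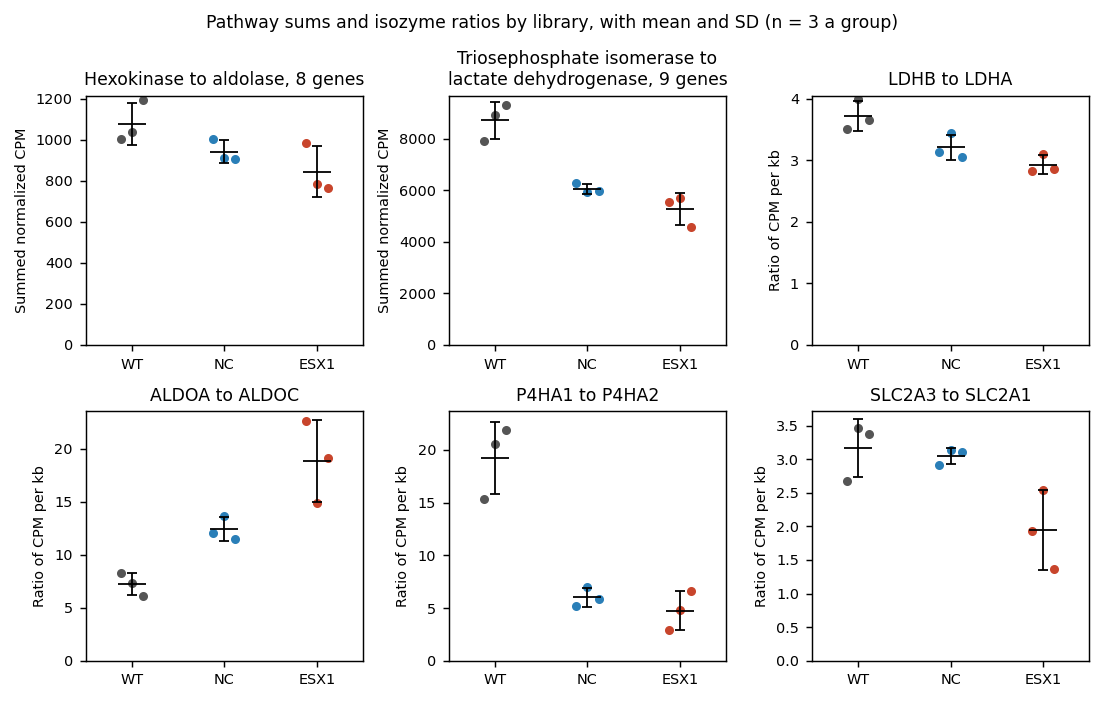
Summed normalized CPM of the early (8 genes) and later (9 genes) glycolytic steps and 4 isozyme ratios of CPM per kb, by library (points) with mean and SD (n = 3 a group), each axis starting at 0. The later steps fall from 8723 in WT to 6063 in NC and 5278 in ESX1, and the ratio of P4HA1 to P4HA2 falls from 19.2 to 6.02 and 4.76.

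The enzymes that set fructose-2,6-bisphosphate, the main activator of phosphofructokinase, were not called in any comparison. PFKFB2 was at 48.8 to 68.0 CPM and PFKFB3, an inducible form, at 9.39 to 23.3 CPM over all 9 libraries. PFKFB4, another inducible form, was at 4.26, 8.02 and 17.4 CPM in WT and 7.15, 4.82 and 2.44 in NC, and the log2 fold change of -1.05 had an interval from -1.94 to -0.16 (adjusted p = 0.0957). WT replicate 3 alone gave the highest PFKFB4 value.

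HIF1A and its known targets outside glycolysis moved in both directions. HIF1A was at 308, 364 and 310 CPM in WT, 222, 254 and 235 in NC and 217, 262 and 230 in ESX1 samples. It was lower by 0.47 on the log2 scale in both transfected groups (adjusted p = 0.00957 and 0.00524), which overlapped, with an interval of -0.24 to 0.24 for their difference. NDRG1, a differentiation-associated gene induced by hypoxia, was at 52.6, 86.3 and 95.9 CPM in WT, 37.3, 32.4 and 30.8 in NC and 27.0, 22.1 and 26.4 in ESX1 samples. The 3 groups of NDRG1 were separate. This was the largest fall among the members in both comparisons with WT, to 42.8% in NC and 32.1% in ESX1 samples (log2 -1.22 and -1.64, adjusted p = 0.000266 and 6.09e-06), and ESX1 against NC gave -0.42 (adjusted p = 0.28).

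ADM, adrenomedullin (chr11:10304680-10307397, plus strand), was the member that most clearly separated ESX1 samples from NC. It was at 517, 610 and 581 CPM in WT, 464, 431 and 422 in NC and 334, 301 and 278 in ESX1 samples. The groups did not overlap, and ESX1 samples stood at 53.5% of WT and 69.3% of NC. The log2 fold change was -0.53 (SE 0.11, adjusted p = 0.00721) against NC, a call kept under all 18 alternatives, -0.90 (adjusted p = 9.07e-06) against WT, and -0.38 (adjusted p = 0.0213, kept under 12 of 18) for NC against WT.

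P4HA1 and P4HA2 encode alternative catalytic subunits of the prolyl 4-hydroxylase that modifies collagen, and both are known to respond to hypoxia. P4HA2 (chr5:132191838-132295315, minus strand) was at 11.9, 10.1 and 10.4 CPM in WT, 28.2, 21.3 and 26 in NC and 56.8, 36.1 and 29.0 in ESX1 samples. The groups were separate, in the opposite order to the glycolytic enzymes. P4HA2 was 2.32-fold WT in NC (log2 1.22, adjusted p = 0.00122) and 3.78-fold WT in ESX1 samples (log2 1.92, adjusted p = 6.41e-06), and it was 1.63-fold NC in ESX1 samples (log2 0.70, SE 0.21, adjusted p = 0.0647). This last value had an adjusted p of 0.0275 with DESeq2 and 0.0259 without ESX1 replicate 3, and the log2 value was 0.38 without ESX1 replicate 1, the highest sample. P4HA1 was at 66.5, 75.1 and 82.9 CPM in WT, 53.5, 54.5 and 55.2 in NC and 60.7, 62.9 and 69.3 in ESX1 samples, with the ESX1 replicates between the others and overlapping WT. It was lower in NC than in WT (log2 -0.46, adjusted p = 0.0114) and not called in ESX1 samples against WT (-0.22, adjusted p = 0.167). The per-kb ratio of P4HA1 to P4HA2 was 19.2 ± 3.42 in WT, 6.02 ± 0.915 in NC and 4.76 ± 1.81 in ESX1 samples. The level of COL1A1, whose product such enzymes modify, was 3.64 ± 1.79 CPM in WT, 17.0 ± 2.6 in NC and 17.7 ± 10.5 in ESX1 samples.

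KDM3A, a histone H3K9 demethylase that hypoxia induces, was the other higher member, at 118, 112 and 151 CPM in WT, 164, 170 and 159 in NC and 180, 189 and 212 in ESX1 samples. The groups of KDM3A did not overlap, with log2 0.37 in NC (adjusted p = 0.0495) and 0.60 in ESX1 samples (adjusted p = 0.00149) against WT, and the first call was lost without WT replicate 1 or 2 or without any 1 of the NC replicates. The mitophagy receptors BNIP3 and BNIP3L were not called, and reads counted for pseudogenes of BNIP3 amounted to 22.8% of its own. EGLN3 was at 1.53, 3.21 and 2.72 CPM in WT, 4.98, 3.22 and 4.78 in NC and 3.75, 4.53 and 5.17 in ESX1 samples, with log2 values against WT of 0.81 and 0.85 (adjusted p = 0.108 and 0.0711), and 1 pseudogene held 42.4% as many counts. ANKRD37 was not called in any comparison.

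Other genes of these pathways were counted in the same fit. Of the 13 tested glycolytic isozymes and side enzymes outside the members, 2 were lower in NC and 2 lower and 1 higher in ESX1 samples than in WT, with none called between ESX1 and NC (medians -0.03, 0.16 and 0.01 on the log2 scale). The lower genes were 15.4% of the list in both comparisons with WT, beside 10.3% of all genes in NC and 15.8% in ESX1 samples, and the higher gene was 7.69%, beside 12.9%. These were PGM2, a phosphopentomutase (log2 -0.75 and -0.92), ADPGK, the ADP-dependent glucokinase (-0.41 and -0.39), and TIGAR, a fructose bisphosphatase (0.57). The germ cell isozymes PGK2, GAPDHS and LDHC had 4, 5 and 15 counts over all libraries and were not tested. Of 9 genes of the pentose phosphate pathway, PGD was lower in both groups than in WT (-0.59 and -0.79), and in ESX1 samples TKTL1 was lower (-1.56) and H6PD higher (0.85), with medians of -0.02, -0.09 and -0.12 in the 3 comparisons. The lower genes of this pathway were 11.1% of the list in NC and 22.2% in ESX1 samples, beside 10.3% and 15.8% of all genes. The higher gene in ESX1 samples was 11.1%, beside 12.9%.

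Among 17 regulators of the HIF pathway, 3 were higher and 2 lower in NC than in WT, 4 higher and 1 lower in ESX1 samples than in WT, and 1 higher in ESX1 samples than in NC, with medians of 0.07, 0.26 and 0.11. The higher genes were 17.6% and 23.5% of the list in the comparisons with WT, beside 6.82% and 12.9% of all genes, and the lower genes 11.8% and 5.88%, beside 10.3% and 15.8%. Between ESX1 and NC the higher gene was 5.88% of the list, beside 1.88% of all genes. EPAS1, which encodes HIF-2α, was at 17.0 ± 5.0 CPM in WT, 27.1 ± 3.60 in NC and 37.8 ± 7.95 in ESX1 samples (log2 0.67 and 1.15 against WT, adjusted p = 0.033 and 0.00046), the opposite direction to HIF1A. CREBBP was higher than in WT in both transfected groups (0.49 and 0.40, adjusted p = 0.015 and 0.0275). The asparaginyl hydroxylase HIF1AN, which blocks HIF transactivation, was also higher in both (0.45 and 0.31, adjusted p = 0.0117 and 0.0495). The lower genes were ELOB in both groups (-0.52 and -0.61) and ELOC in NC (-0.61). SIAH2, a ubiquitin ligase that targets the prolyl hydroxylases, was higher in ESX1 samples than in NC (0.90, adjusted p = 0.0437).

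Of 27 further hypoxia-inducible genes that were tested, 4 were higher and 4 lower in NC, and 8 higher and 4 lower in ESX1 samples, compared with WT, while 2 were higher and 1 lower in ESX1 samples than in NC. The lower genes were 14.8% of the list in both comparisons with WT, beside 10.3% and 15.8% of all genes, and the higher genes 14.8% and 29.6%, beside 6.82% and 12.9%. Between ESX1 and NC the shares were 7.41% higher and 3.70% lower, beside 1.88% and 2.37%. The medians of this list were 0.09, 0.16 and 0.13 on the log2 scale in the 3 comparisons. ANGPTL4, a secreted inhibitor of lipoprotein lipase, was at 176 ± 66.2 CPM in WT, 61.3 ± 5.45 in NC and 16.6 ± 3.62 in ESX1 samples and was lower in all comparisons (log2 -1.52, -3.39 and -1.87, the last with an adjusted p of 8.77e-05). AK4, a mitochondrial adenylate kinase (-1.37 and -1.98), and the lipid droplet gene HILPDA (-1.05 and -1.17) were lower than WT in both groups. In the other direction, the transporter gene SLC2A12 (1.47 and 2.41 against WT, 0.95 against NC) and the lipoprotein receptor VLDLR (0.86 and 2.08 against WT, 1.22 against NC) were higher in every comparison. The glycoprotein hormone STC2 was higher against WT (1.40 and 1.53).

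Of 30 genes for pyruvate oxidation and the citric acid cycle, 8 were lower in NC and 9 in ESX1 samples than in WT and none was higher, with medians of -0.26 and -0.28 and of 0.01 in ESX1 against NC. The lower genes were 26.7% and 30.0% of the list, beside 10.3% and 15.8% of all genes, and the absence of higher ones stood beside 6.82% and 12.9%. PDHB, the E1 beta subunit of pyruvate dehydrogenase, was at 85.5 ± 16 CPM in WT, 40.9 ± 4.39 in NC and 41.3 ± 8.56 in ESX1 samples (log2 -1.06 and -1.04), and SDHD, an anchor subunit of succinate dehydrogenase, was also lower in both groups (-1.05 and -0.80). Between ESX1 and NC, 2 genes were lower, namely SUCLA2, a succinyl-CoA ligase subunit (-0.62, adjusted p = 0.00432), and PC, pyruvate carboxylase, which replenishes oxaloacetate (-0.79, adjusted p = 0.0105). These 2 were 6.67% of the list, beside 2.37% of all genes. PC was at 20.4 ± 2.83 CPM in WT, 20.9 ± 1.43 in NC and 12 ± 0.368 in ESX1 samples.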

How the data were processed

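RNA-seq libraries of 9 TCam-2 samples were made with a stranded, rRNA-depleted total RNA kit (paired ends). The authors aligned reads with HISAT2 2.0.5 to GRCh38, and the deposited counts are whole read pairs per gene, without strand, multi-mapping or multi-overlapping reads (featureCounts 1.5.2 and GENCODE 26 per the file header, 1.6.5 per the submitters' processing notes). The deposited log2 values were made by the authors with DESeq2 (version not given in the sources used here). Group and replicate came from the sample titles, and replicates are described as biological.

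Counts were tested with edgeR 4.0.16 in R 4.3.3 (TMM factors, filterByExpr, 1 quasi-likelihood fit of the 9 samples without covariates, Benjamini-Hochberg over 18452 genes), with a call at an adjusted p below 0.05. Of the 36 members, 35 passed the filter. CPM values are TMM-normalized, and n = 3 a group. Members and lists were chosen with earlier results of these data known. All members, and up to 3 genes with the largest rise and fall among the called genes of each other list and comparison, could be named, and COL1A1 was named as a marker. GCGTG and ACGTG were searched on both strands. No sequence by coordinate was read from a genome. Script steps were tested on simulated data, with 200 genes drawn from all tested genes and changed in the ESX1 group. In ESX1 against NC, edgeR recovered 71.5% of these and 47.4% of those changed 2-fold, with 8 false calls. Alternatives were DESeq2 1.42.0, RLE factors, no filter, a replicate block, fits of 2 groups, removal of mitochondrial genes, limma 3.58.1 on the deposited log2 values and leaving out each sample. Scaling by library totals and upper quartiles was chosen after seeing the data. With 3 samples against 3, an exact permutation test cannot go below p = 0.1, so none was used.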

Additional observations from a re-analysis of the deposited data

How the results depend on the processing

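Over 18 alternatives no called member changed direction. Of 369 values with a sample left out, 46 lost their call, and 17 of the 369 others did. The 17 lower members in NC against WT became 8 with library totals without factors (a choice made after seeing the data) and 8 to 19 with a sample left out; calls kept under all alternatives were TPI1, PGK1, PGAM1, ENO1, LDHB, PDK1, NDRG1 and P4HA2. The 2 higher members in that comparison were 1 to 2 with a sample left out. The 4 members past 2-fold there became 2 with upper-quartile factors (also chosen after seeing the data), 1 with limma on the deposited log2 values, and 2 to 6 with a sample left out. In ESX1 against NC, and against both controls, the 0 higher members became 1 (P4HA2) with DESeq2, with no filter on low counts and with the replicate block (log2 0.67, adjusted p = 0.0250), and were 0 to 1 with a sample left out, while the 2 lower members were 1 to 3. The cause was not tested. Among uncalled values near 0, HIF1A in ESX1 against NC was 0.0081 with DESeq2, 0.0078 with RLE factors, 0.014 with upper-quartile factors and 0.0012 with limma, and -0.084 to 0.059 with a sample left out. With a sample left out, PGAM1 was -0.22 to 0.043, PDK1 -0.31 to 0.00059 and SLC16A1 -0.18 to 0.045 in ESX1 against NC, SLC2A1 was -0.019 to 0.21 and PFKFB4 -0.86 to 0.23 in ESX1 against WT, and HK2 was -0.025 to 0.34 in NC against WT.

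Samples with the same replicate number did not deviate together in every pair (correlations -0.030 to 0.193). In ESX1 against NC the correlations were 0.193, 0.091 and 0.016 for numbers 1, 2 and 3. The highest correlations with another number were -0.081, 0.068 and 0.030. Whether samples of the same number share a batch was not tested. The block changed no other count of member calls given here. ESX1 replicate 3 had the fewest counts, and low genes such as CA9, ANKRD37 and EGLN3 were limited by depth.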
